A study of Homo sapiens with 8 samples.

Results

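The 9 genes described here, of 25369 gene symbols in the deposited table, were chosen by name, with earlier results of these data known. LAMA3 and LAMB3 encode the α3 and β3 chains of laminin-332. LAMA5, LAMB1 and LAMC1 encode the α5, β1 and γ1 chains of other laminins. ITGA6 and ITGB4 encode the 2 subunits of the laminin receptor α6β4 integrin, and DST and PLEC encode the plaque proteins BPAG1 and plectin. Each is listed under its symbol, and all 9 passed the filter on low values, so that none is missing from the tests.

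Laminins are heterotrimers of 1 α, 1 β and 1 γ chain and are the main adhesive proteins of the basement membrane (BM), the sheet on which mammary epithelium rests. Basal epithelial cells secrete laminin-332. In a hemidesmosome, α6β4 integrin and collagen XVII (COL17A1) bind laminin-332 outside the cell, while plectin and BPAG1 tie them to keratin filaments inside it.

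RNA-seq was performed on MCF10A cells, a spontaneously immortalized human mammary epithelial line, after 7 days of encapsulation in 4 hydrogels. Each gel gave 2 libraries (replicate 1 and replicate 2), which the methods describe as independent trials. Soft IPNs and stiff IPNs were interpenetrating networks of alginate with reconstituted basement membrane (rBM), and calcium crosslinking of the alginate was added for the stiff IPNs. Soft col:rBM gels combined rBM with a low density of collagen-1 (col-1), and stiff col gels were made of col-1 at high density with no rBM. Thus 3 gels held rBM and 1 did not. All cells were of the same line, the labels name no edited gene and no drug, and every gel was cast in a well already coated with gelled rBM, so that cells in stiff col were not kept from all rBM. The rBM used was Matrigel, a mouse tumor matrix extract rich in laminin. Laminin protein was not measured in these libraries. In stiff col the absence of rBM coincided with more col-1, with no alginate and with a change of stiffness, and these cannot be told apart.

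The depth was 13064422 to 18592366 reads on genes in each library, estimated from steps in the deposited values. The paper gives a higher number of reads per library after filtering. Sequencing was paired-end, and whether 1 count stands for a read or a read pair was not determined. The values are normalized counts, that is, read counts divided by 1 factor per library and rounded. A count of 3 reads, taken as the limit of detection, came to between 2.41 and 3.73 normalized counts, and this limit covers counting error only. All 9 genes lay far above it, with a lowest value of 2831. Their counts are from whole gels, so fewer cells of a type and less RNA per cell cannot be told apart.

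Promoter sequences are shown for LAMA3 and LAMB3, whose levels moved together across libraries, and for LAMB1, the laminin chain called between IPNs with the trial as a block. They are RefSeq sequences of GRCh38.p14, each of 300 bases around a transcript start with most of them upstream, and capitals mark each match to the AP-1 motif TGANTCA.
LAMA3 (chr18:23872770-23873069, plus strand): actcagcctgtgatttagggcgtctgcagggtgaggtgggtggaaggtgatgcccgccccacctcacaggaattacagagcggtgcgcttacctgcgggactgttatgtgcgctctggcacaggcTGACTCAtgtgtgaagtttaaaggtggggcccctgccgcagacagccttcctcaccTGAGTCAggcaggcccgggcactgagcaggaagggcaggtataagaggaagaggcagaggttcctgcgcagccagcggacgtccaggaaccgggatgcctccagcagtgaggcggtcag
LAMB3 (chr1:209651325-209651624, minus strand): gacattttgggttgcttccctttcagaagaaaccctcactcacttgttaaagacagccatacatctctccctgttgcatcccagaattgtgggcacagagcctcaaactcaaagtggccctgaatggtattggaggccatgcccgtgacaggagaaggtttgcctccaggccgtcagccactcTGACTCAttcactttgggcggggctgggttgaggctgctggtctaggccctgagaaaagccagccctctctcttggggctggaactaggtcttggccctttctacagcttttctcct
LAMB1 (chr7:108003112-108003411, minus strand): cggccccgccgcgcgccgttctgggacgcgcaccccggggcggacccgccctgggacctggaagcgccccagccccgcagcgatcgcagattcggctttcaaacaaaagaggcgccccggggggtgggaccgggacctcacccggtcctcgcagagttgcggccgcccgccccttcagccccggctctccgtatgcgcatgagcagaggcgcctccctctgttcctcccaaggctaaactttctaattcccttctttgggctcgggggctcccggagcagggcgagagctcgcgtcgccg
The AP-1 motif was found 2 times in the LAMA3 window, at -125 and -69 from the start, and 1 time in the LAMB3 window shown, at -67. LAMB3 has 3 annotated starts, and the windows of the other two held no match. No match was found in the windows of LAMB1, LAMC1, LAMA5 or ITGA6, and 1 of 3 DST windows held a match at 25. Of all 35116 promoter windows, 7.7% held TGANTCA, which reads the same on both strands. GGGCGG, the motif of SP1 and KLF factors, was found on either strand 5 times for LAMA5, 4 times for LAMB1, 3 times for LAMC1 and 1 time for LAMA3. It was also found 1 time in each of the 3 LAMB3 windows, 1 and 3 times in the ITGA6 windows, and 4 times in the DST window with the AP-1 match. Windows of the same gene can overlap and share a match. Of all 35116 windows, 15786 held at least 1 match. GGAATG, the TEAD motif, was present in the same DST window and in 14.0% of all windows. These matches describe letters in a window, and factor binding was not measured.

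LAMA3 (hg19 chr18:21269417-21536186) had 45060 and 35909 normalized counts in soft IPN, 33123 and 19324 in stiff IPN, 57417 and 27535 in soft col:rBM, and 56592 and 27651 in stiff col, in the order replicate 1 and replicate 2. Both stiff IPN libraries lay below both soft IPN libraries, while the 2 collagen gels matched each other closely within each trial. LAMB3 (hg19 chr1:209788215-209825770) had 41574 and 39370 normalized counts in soft IPN, 33516 and 25292 in stiff IPN, 43297 and 26201 in soft col:rBM, and 49086 and 27322 in stiff col. Again the IPNs did not overlap and the collagen gels did. The log2 difference between stiff and soft IPN was -0.67 (SE 0.49) for LAMA3 and -0.47 (SE 0.37) for LAMB3. Neither passed the test, with adjusted p = 0.667 and adjusted p = 0.693, nor with the trial as a block, with adjusted p = 0.101 and adjusted p = 0.2.

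**Figure D1:**
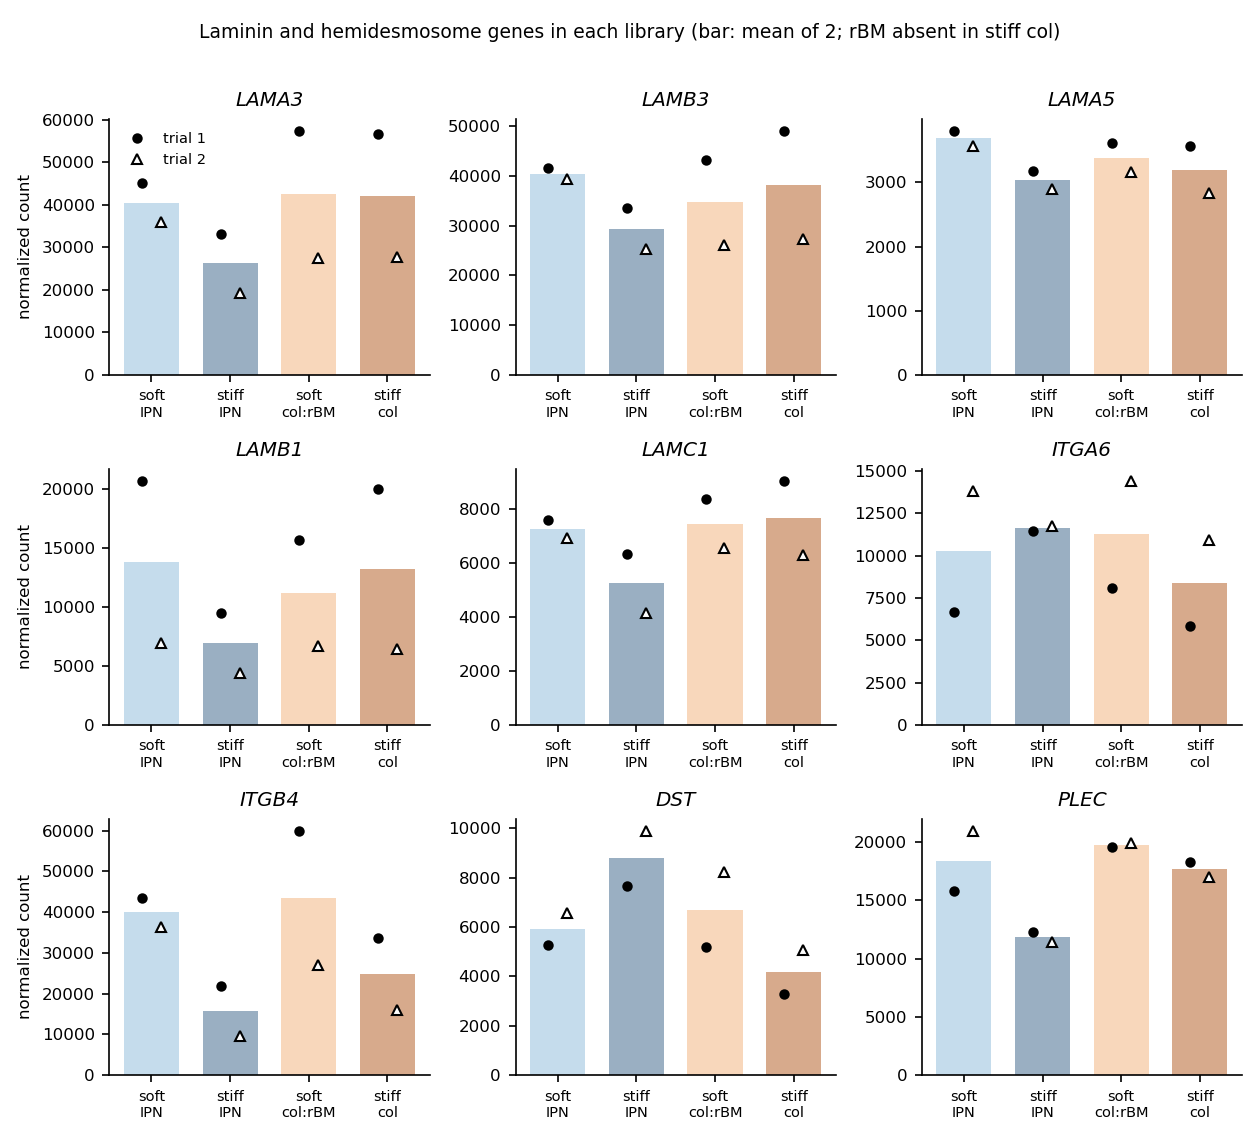
Normalized counts (vertical axis from 0) of the 9 genes in each of the 4 gels, with filled circles for trial 1, open triangles for trial 2 and bars for the mean of the 2 libraries. The 2 stiff IPN libraries lie below both soft IPN libraries for LAMA3, LAMB3, LAMA5, LAMC1, ITGB4 and PLEC, and above them for DST.

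The ratio of LAMA3 to LAMB3 normalized counts within a library ran from 0.764 to 1.33. Stiff col, without rBM, had LAMA3 and LAMB3 levels close to those of soft col:rBM. The log2 difference between stiff col and soft col:rBM was -0.01 (SE 0.49) for LAMA3 and 0.12 (SE 0.37) for LAMB3. Scaled to equal totals, the LAMA3 value was 0.04. With the trial as a block these SEs were 0.20 and 0.21, so differences of that order would not have been detected in that fit. A blocked limma fit of the collagen gel libraries alone, chosen after the data were seen, gave SEs of 0.0607 and 0.0632. Neither gene passed there, with adjusted p = 0.962 for LAMA3 and adjusted p = 0.284 for LAMB3.

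LAMA5 (hg19 chr20:60883011-60942368), the α chain of laminin-511, had 3804 and 3572 normalized counts in soft IPN, 3174 and 2896 in stiff IPN, 3608 and 3168 in soft col:rBM, and 3563 and 2831 in stiff col. Its gel means spanned 0.28 on the log2 scale, the narrowest span of the 9. LAMC1 (hg19 chr1:182992555-183114727), the γ chain of most laminins other than laminin-332, had 7608 and 6946 normalized counts in soft IPN, 6352 and 4173 in stiff IPN, 8388 and 6561 in soft col:rBM, and 9055 and 6307 in stiff col. Stiff IPN was below soft IPN in both trials for each of these genes, by a log2 difference of -0.28 (SE 0.19) for LAMA5 and -0.50 (SE 0.29) for LAMC1, and neither difference passed the test with or without the block.

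LAMB1 (hg19 chr7:107564244-107643658), the β chain that pairs with γ1, had 20703 and 6982 normalized counts in soft IPN, 9483 and 4414 in stiff IPN, 15689 and 6730 in soft col:rBM, and 19997 and 6402 in stiff col. Each replicate 1 library exceeded every replicate 2 library, so the gels overlapped when trials were mixed. Within each trial stiff IPN was the lowest gel. The log2 difference between stiff and soft IPN was -0.89, with an SE of 0.75 and adjusted p = 0.717 without the block, and an SE of 0.18 and adjusted p = 0.0386 with it. This call did not hold under every setting: it was made in 7 of 14 settings with the block, and without replicate 2 of soft IPN the adjusted p was 0.348, without replicate 1 of soft IPN 0.119, without soft col:rBM replicate 1 0.0516 or replicate 2 0.0524, and without stiff col replicate 2 0.0509. Rescaling libraries to equal totals gave -0.62, with adjusted p = 0.064 in the blocked fit.

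The remaining laminin chains were mostly low. LAMB2, the β2 chain, had between 1664 and 3322 normalized counts, LAMA1 between 73 and 185, and LAMA2 between 10 and 29. LAMA4, LAMB4 and LAMC3 had at most 7 normalized counts in any library and were not tested. Of 11 laminin chain genes, 8 were tested, and with the trial as a block 1 of them (LAMB1) fell in stiff against soft IPN and none rose, where 3.82% of all genes were called, while none was called in the comparisons of stiff col with stiff IPN or soft col:rBM. On the mean of both trials, all 8 of these tested chains were lower in stiff than soft IPN as deposited and 6 when libraries were rescaled to equal totals, where LAMA1 and LAMA2 came to 0.03 and 0.09. The median log2 difference of the chains was -0.47 as deposited, against -0.01 over all genes, and equal totals moved the median of all genes by 0.27.

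Lengths differ between these genes, so levels were compared per kilobase of annotated exon. On this measure LAMB3 was the highest of the 9, with a median over 8 libraries of 7840 normalized counts per kilobase. It was followed by ITGB4 at 4480, LAMA3 at 2380, ITGA6 at 1670, PLEC at 1040 and LAMC1 at 799. LAMB1 at 443, LAMA5 at 236 and DST at 123 were the lowest. The partner gene COL17A1 stood at 3430. Over these 10 genes and LAMB2, the ranges of all 10 neighbouring pairs in the order overlapped, so that neighbours are not ordered beyond their spread. Exon lengths are those of all annotated transcripts together, at 18.59 kilobases for LAMB1 and 14.49 for LAMA3 but 4.65 for LAMB3. Where the transcripts expressed are shorter than this total, the level per kilobase is understated, so the order depends on the annotation. DST in particular has neuronal, muscle and epithelial isoforms that a count per gene does not separate.

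**Figure D2:**
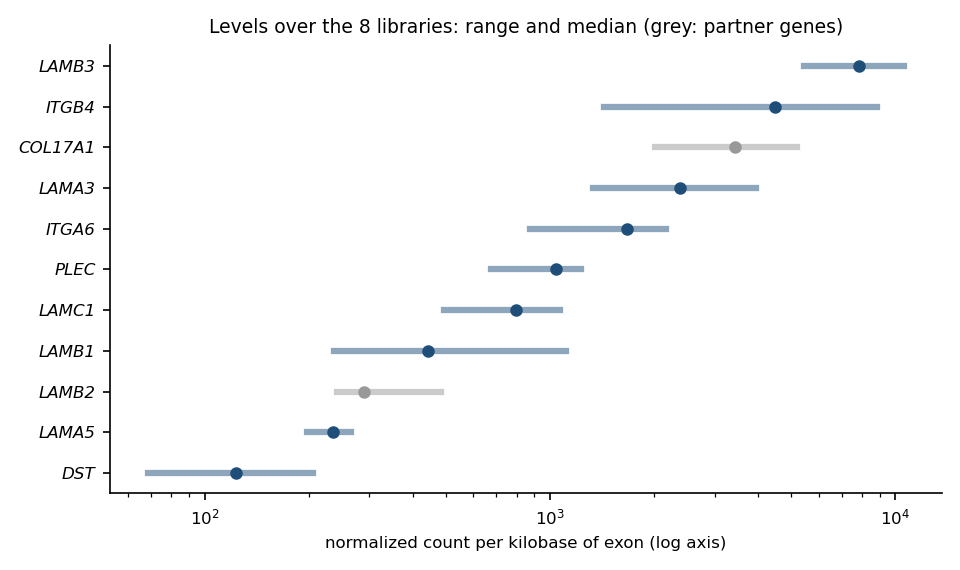
Normalized count per kilobase of annotated exon (horizontal log axis) for the 9 genes in blue and 2 partner genes in grey, with dots for the median and bars for the range over 8 libraries. LAMB3 is the highest, at a median of 7840, and DST is the lowest at 123.

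ITGB4 (hg19 chr17:73717408-73753899), the integrin subunit found in hemidesmosomes, had the widest span of gel means, 1.47 on the log2 scale. It had 43446 and 36407 normalized counts in soft IPN, 21849 and 9669 in stiff IPN, 59921 and 27008 in soft col:rBM, and 33628 and 15995 in stiff col. Stiff IPN was below soft IPN in both trials and the libraries did not overlap. In trial 1 the stiff IPN value was 50.3% of the soft IPN value, and in trial 2 it was 26.6%. The log2 difference was -1.45 (SE 0.55, adjusted p = 0.514) without the block. With the trial as a block ITGB4 fell in stiff IPN (SE 0.24, adjusted p = 0.0292), a call made in 13 of 14 blocked settings and lost without replicate 2 of soft IPN (-1.01, adjusted p = 0.235).

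ITGA6 (hg19 chr2:173292082-173371187), the α6 subunit that also pairs with β1 integrin, had 6681 and 13801 normalized counts in soft IPN, 11466 and 11742 in stiff IPN, 8102 and 14402 in soft col:rBM, and 5860 and 10891 in stiff col. The 2 trials went opposite ways between IPNs, with 172.0% of the soft value in trial 1 and 85.1% in trial 2, and the log2 difference of 0.27 (SE 0.46) turned to -0.25 without replicate 1 of soft IPN. The ratio of ITGA6 to ITGB4 normalized counts within a library, which sets the subunits of 1 receptor side by side, was 0.154 and 0.379 in soft IPN, 0.525 and 1.21 in stiff IPN, 0.135 and 0.533 in soft col:rBM, and 0.174 and 0.681 in stiff col. Stiff IPN had the highest ratio within trial 1 and within trial 2, and replicate 2 was above replicate 1 in every gel.

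DST (hg19 chr6:56322785-56819628) had 5268 and 6592 normalized counts in soft IPN, 7671 and 9894 in stiff IPN, 5187 and 8226 in soft col:rBM, and 3301 and 5079 in stiff col. Stiff IPN was above soft IPN without overlap, and both stiff col libraries were below every library of the 3 gels with rBM. DST was the only member with the latter pattern, which 2.03% of 13369 tested genes showed toward lower values and 1.94% toward higher values. Between stiff col and stiff IPN the log2 difference was -1.09 (SE 0.32, adjusted p = 0.58) without the block. With the block DST fell in stiff col (SE 0.15, adjusted p = 0.0165), in 12 of 14 blocked settings, and the call was lost without stiff col replicate 1 (adjusted p = 0.178) or replicate 2 (adjusted p = 0.0699). Against the mean of the 3 gels with rBM the difference was -0.76 (SE 0.26), with adjusted p = 1 without and 0.15 with the block, so it passed neither way.

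PLEC (hg19 chr8:144989321-145050902) had 15836 and 20960 normalized counts in soft IPN, 12291 and 11452 in stiff IPN, 19576 and 19946 in soft col:rBM, and 18324 and 16996 in stiff col. Stiff IPN held the 2 lowest libraries of all 8. Its log2 difference from soft IPN was -0.62 (SE 0.22, adjusted p = 0.5), and with the block adjusted p = 0.0822. COL17A1, a partner gene that encodes collagen XVII, had 28378 and 28190 normalized counts in soft IPN, 16935 and 14108 in stiff IPN, 36245 and 25367 in soft col:rBM, and 22538 and 17783 in stiff col. With the trial as a block it fell in stiff against soft IPN (log2 difference -0.87, SE 0.17, adjusted p = 0.0373), but it did not pass without the block (adjusted p = 0.493) or in a blocked fit of the 4 IPN libraries alone (adjusted p = 0.0645). CD151, a tetraspanin that associates with α6β4 integrin, had between 4651 and 7386 normalized counts and was not called in any comparison.

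With the trial as a block, ITGB4 and LAMB1 and, outside the 9 genes, COL17A1 were thus lower in the calcium-crosslinked IPN. In a blocked fit of the 4 IPN libraries alone, chosen after the data were seen, ITGB4 passed (adjusted p = 0.0139) and LAMB1 (adjusted p = 0.0584) and COL17A1 (adjusted p = 0.0645) did not. Of the 9 genes, 0 were called without the block in this comparison, where 0% of all 13369 genes were called and 1245 had an unadjusted p under 0.05, with 2 of the 9 among them. With the block 2 of 9 were called, against 3.82% of all genes. The paper's own test of these 2 gels, with DESeq2, did call genes at a false discovery rate under 0.05. Its supplement lists ITGB4, LAMB1 and COL17A1 among genes lower in stiff than soft IPNs, so the absence of calls without the block belongs to the limma fit used here. The median log2 difference of the 9 was -0.50 against -0.01 over all genes, 7 lay lower and 2 higher. Equal totals kept these directions, with LAMA5 at -0.01 and ITGB4 at -1.18. Libraries did not overlap for 6 genes lower in stiff IPN and 1 higher, where 21.4% and 20.5% of all genes did the same.

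Between the stiff gels, stiff col was above stiff IPN for 7 of 9 genes (6 when libraries were scaled to equal totals, where LAMA5 came to -0.04), with a median log2 difference of 0.55. The differences were 0.64 (SE 0.49) for LAMA3, 0.81 (SE 0.75) for LAMB1, 0.55 (SE 0.29) for LAMC1, 0.67 (SE 0.55) for ITGB4 and 0.57 (SE 0.22) for PLEC, and none of these passed with or without the block. ITGA6 differed by -0.54 (SE 0.46). DST was the 1 of 9 genes called, with the block only, against 2.47% of all genes with the block and 0% without it. Libraries did not overlap for PLEC, higher in stiff col, and for ITGA6 and DST, lower in it, and the shares over all genes were 15.1% higher and 15.8% lower. The comparisons of stiff IPN with soft IPN and of stiff col with stiff IPN share the stiff IPN libraries, so that a low value there enters both.

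**Figure D3:**
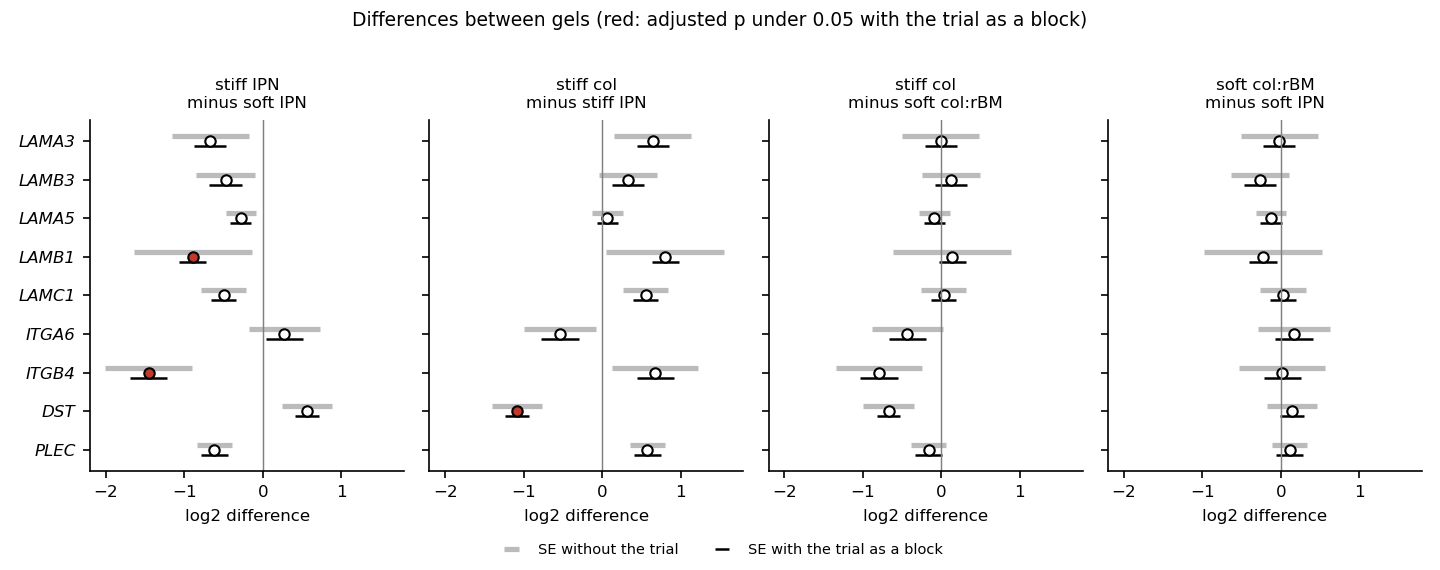
Log2 differences between gels for the 9 genes (horizontal axis) in 4 comparisons, with grey bars for 1 SE of the fit without the trial, black bars for 1 SE of the fit with the trial as a block, and red dots for adjusted p under 0.05 with the block. Red dots are LAMB1 at -0.89 and ITGB4 at -1.45 in stiff against soft IPN, and DST at -1.09 in stiff col against stiff IPN.

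In the collagen gels, where only the soft gel held rBM, ITGB4, DST, ITGA6 and COL17A1 were lower in stiff col in both trials, by more than LAMA3, LAMB3 or PLEC. ITGB4 in stiff col was 56.1% of its soft col:rBM value in trial 1 and 59.2% in trial 2. DST was at 63.6% and 61.7%, ITGA6 at 72.3% and 75.6%, and COL17A1 at 62.2% and 70.1%. LAMA3 differed by -0.02 in trial 1 and 0.01 in trial 2 on the log2 scale, LAMB3 was at 113.0% and 104.0%, and PLEC at 93.6% and 85.2%. LAMA5 was at 98.8% and 89.4%, while LAMB1 (127% and 95.1%) and LAMC1 (108% and 96.1%) changed direction between trials. ITGB4, DST and ITGA6 were lower in stiff col to a similar degree in both trials, although ITGB4 itself was higher in trial 1 in both gels and ITGA6 and DST in trial 2.

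Log2 differences in this comparison were -0.79 (SE 0.55) for ITGB4, -0.67 (SE 0.32) for DST, -0.44 (SE 0.46) for ITGA6 and -0.16 (SE 0.22) for PLEC. In the fit of all 8 libraries 0 of 9 genes were called without the block (0% of all genes, and 140 with an unadjusted p under 0.05) or with it (0% of all genes, and 497 with an unadjusted p under 0.05, among them ITGB4 and DST). A blocked fit of these 4 libraries alone, chosen after the data were seen, called ITGB4 (adjusted p = 4e-06), DST (adjusted p = 4.53e-05) and ITGA6 (adjusted p = 0.00129), that is 3 of 9 against 7.07% of all genes, and COL17A1 as well (adjusted p = 8.41e-05). The SE for ITGB4 was 0.0625 in that fit and 0.24 in the blocked fit of all libraries, where the spread is shared with the IPNs. Libraries did not overlap for DST and PLEC, both lower, against 9.5% of all genes lower and 9.51% higher.

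**Figure D4:**
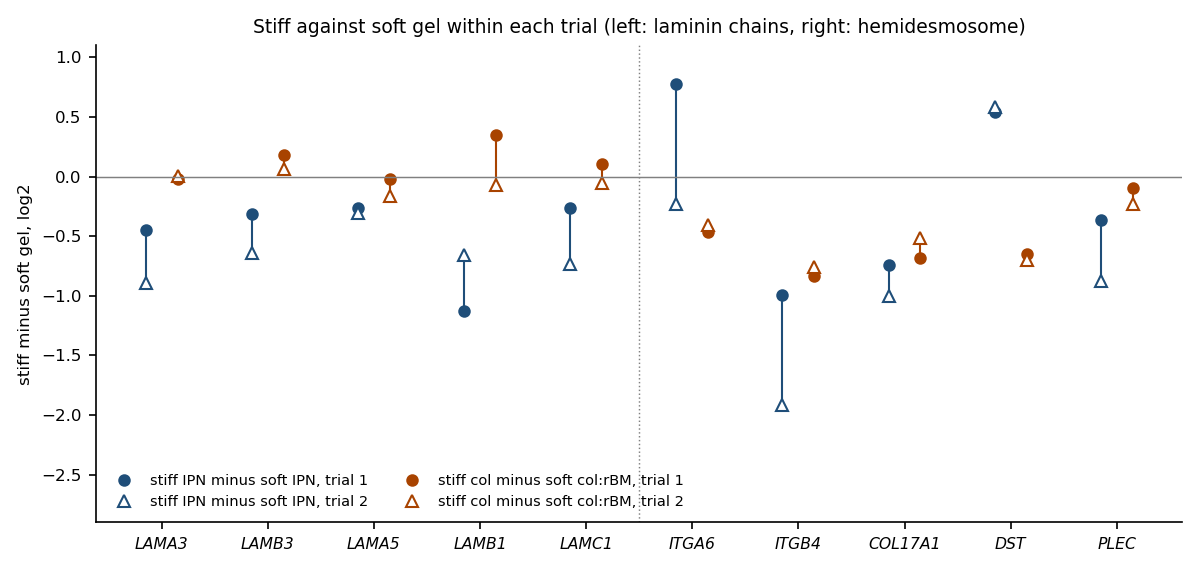
Stiff minus soft gel on the log2 scale (vertical axis) within trial 1 (filled circles) and trial 2 (open triangles), in IPNs (blue) and collagen gels (orange), for 5 laminin chains left of the dotted line and 5 hemidesmosome genes right of it. The collagen pairs lie near 0 for LAMA3 and LAMB3 and below 0 for ITGA6, ITGB4, COL17A1 and DST, while DST in IPNs lies above 0 at 0.54 and 0.59.

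Soft col:rBM and soft IPN both held rBM, and their log2 differences over the 9 genes ran from -0.26 for LAMB3 to 0.17 for ITGA6, with a median of 0.02. For 6 of the 9 the 2 trials went opposite ways, among them ITGB4 (0.46 in trial 1 and -0.43 in trial 2) and LAMA3 (0.35 and -0.38), so that small means here do not show small differences within a trial. None of the 9 was called without the block (0% of all genes, 190 with an unadjusted p under 0.05) or with it (0.0224% of all genes). Stiff col against the mean of the gels with rBM gave no call among the 9 either, where 0% of all genes were called without and 0.0374% with the block, and 341 genes had an unadjusted p under 0.05 without it. The test of any difference among the 4 gels called ITGB4 (adjusted p = 0.0451) and DST (adjusted p = 0.0472) with the block, 2 of 9 against 1.58% of all genes, and 0 of 9 against 0% without it, where 702 genes had an unadjusted p under 0.05.

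Whether the stiffness difference is the same in both gel systems was tested as the difference in collagen gels minus that in IPNs. It was largest for DST, at -1.24 (SE 0.45), and for LAMB1, at 1.03 (SE 1.06), and adjusted p was 1 for all 9 without the block. With the block DST had an SE of 0.21 and adjusted p = 0.156, and LAMB1 an SE of 0.25 and adjusted p = 0.259. None of the 9 was called, where 0% of all genes were called without the block, with 278 at an unadjusted p under 0.05, and 0.015% with it.

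The 2 trials also differed. Trial 2 minus trial 1 over the 4 gels passed the test for 7 of 9 genes, against 27.1% of all genes. LAMB1 was lower in trial 2 by 2.61-fold (log2 difference -1.38, SE 0.12, adjusted p = 0.00155), ITGB4 by 1.88-fold and LAMA3 by 1.74-fold. LAMB3 and LAMC1 were lower as well, by 1.43-fold and 1.32-fold, while ITGA6 was higher by 1.63-fold and DST by 1.41-fold. LAMA5 (adjusted p = 0.183) and PLEC (adjusted p = 0.762) did not pass.

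**Figure D5:**
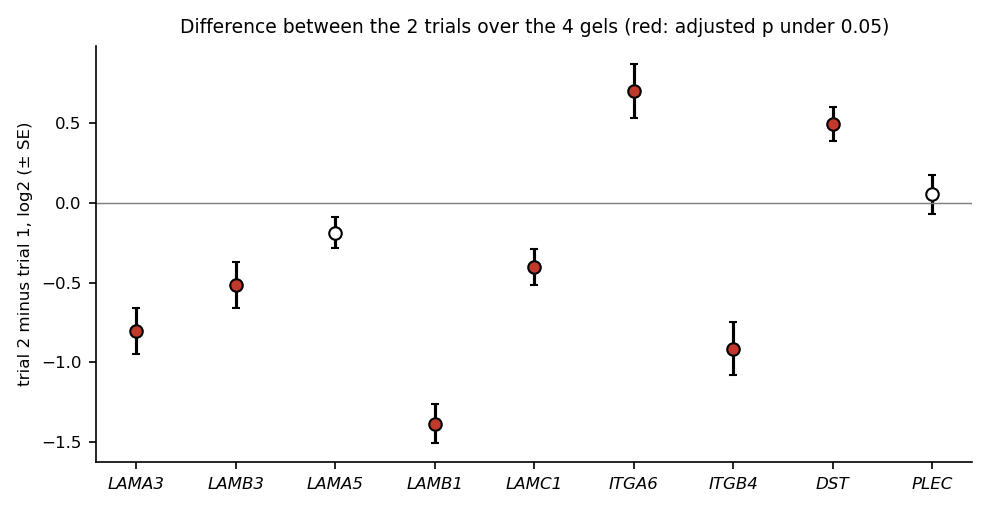
Trial 2 minus trial 1 on the log2 scale (vertical axis, with bars of 1 SE) for the 9 genes over the 4 gels, with red dots for adjusted p under 0.05. LAMB1 is the lowest at -1.38 and ITGA6 the highest at 0.70.

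Among the 5 laminin chains the levels went together from library to library. Over the 8 libraries Pearson's r on the log2 scale ran from 0.763 to 0.944 for the 10 pairs of chains, and from 0.606 to 0.93 once each trial's mean was removed. LAMA3 and LAMB3 had r = 0.943, and LAMA3 and LAMC1 had r = 0.944. ITGB4 also went with the 5 chains, with r from 0.775 to 0.9, and from 0.68 to 0.854 with the trial means removed. For PLEC these values ran from 0.284 to 0.688, and from 0.694 to 0.968 with the trial means removed. Going together was thus not particular to the laminin chains, and the share of all genes with such values was not determined. ITGA6 and DST went with each other (r = 0.801, and 0.731 with the trial means removed). To LAMA3, DST had r = -0.803 (-0.736 with the trial means removed) and ITGA6 r = -0.749, which shrank to -0.36 with the trial means removed. Removing them also left weak values for ITGA6 with LAMA5 (-0.164) and LAMC1 (-0.267) and for DST with LAMA5 (-0.252). Stronger values remained for ITGA6 with LAMB1 (-0.66) and for DST with LAMB1 (-0.747), LAMC1 (-0.751) and LAMB3 (-0.637). The subunits ITGA6 and ITGB4 did not go together (r = -0.455, and -0.005 with the trial means removed). These 8 points share 2 trials and 4 gels and describe these libraries only.

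The genes most like the mean of LAMA3 and LAMB3 over the 8 libraries were NBAS, B4GALT3 and HYAL2 (each r = 0.99), ANAPC11 (r = 0.989) and AGBL5 (r = 0.987). Those most like LAMB1 and LAMC1 were BCL2L13 (r = 0.993), TOX2 (r = 0.991), WDYHV1 (r = 0.99), ITPKA (r = 0.989) and FZD2 (r = 0.986). For the mean of ITGA6 and ITGB4 they were CNOT8 (r = 0.974), NAGS (r = 0.971), STMN1 (r = 0.967), NDE1 (r = 0.966) and YBX3P1 (r = 0.963), the last a pseudogene whose reads may come from its parent gene. These values also rest on 8 points that share the trials.

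Other receptors of laminin were ITGA3, ITGA7, ITGB1, DAG1 and BCAM, and of these 5 tested genes 0 were called in any comparison between gels, while ITGB1 was lower in trial 2 than in trial 1 (log2 difference -0.51, adjusted p = 0.0195). ITGA3, which pairs with β1 integrin to bind laminin-332, had between 13578 and 24366 normalized counts, and ITGB1 between 21026 and 47616. Of 16 other BM genes 12 were tested, and with the block 1 was called between IPNs and 2 between stiff gels, where 3.82% and 2.47% of all genes were. With the trial as a block NTN4, a laminin-binding netrin, rose in stiff IPN against soft IPN (log2 difference 1.51, SE 0.29, adjusted p = 0.0373), from 257 and 147 normalized counts to 502 and 611. COL4A1 and COL4A2, the main collagen IV chains of the BM, rose in stiff col against stiff IPN, by a log2 difference of 1.16 (adjusted p = 0.0235) and 1.34 (adjusted p = 0.0235). The nidogens NID1 and NID2, which link laminin to collagen IV, had at most 4 normalized counts in any library.

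Of 5 genes for proteases that act on laminin or the BM, 4 were tested, and with the block MMP2 and MMP14 rose in stiff col against stiff IPN, where 2.47% of all genes were called. MMP2, a gelatinase, had 84 and 66 normalized counts in stiff IPN and 438 and 219 in stiff col (log2 difference 2.04, SE 0.30, adjusted p = 0.02). MMP14, its membrane-bound activator, had 3950 and 3644 in stiff IPN and 8271 and 6629 in stiff col (log2 difference 0.96, SE 0.17, adjusted p = 0.0327). Of the keratins that hemidesmosomes anchor, KRT14 fell in stiff col against stiff IPN with the block (log2 difference -1.52, SE 0.27, adjusted p = 0.0328), from 3555 and 7848 normalized counts to 839 and 4034. KRT5 had 15259 and 38963 in stiff IPN and 7417 and 24369 in stiff col and did not pass. None of the genes in these 2 paragraphs was called without the block.

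Markers of the cell line were present. The summed normalized counts of the 5 basal mammary markers (KRT5, KRT14, KRT17, TP63 and CDH3) were 35918 and 81805 in soft IPN, 45592 and 125469 in stiff IPN, 28976 and 57917 in soft col:rBM, and 18525 and 49214 in stiff col. The higher sum in stiff than soft IPN came with KRT17, at 5552 and 18767 in soft IPN and 19555 and 71907 in stiff IPN, while KRT5 went from 19940 and 44022 to 15259 and 38963 and CDH3 from 7773 and 9567 to 6262 and 5814. With the block KRT17 rose in stiff IPN (log2 difference 1.88, adjusted p = 0.00669) and fell in stiff col against stiff IPN (log2 difference -2.57, adjusted p = 0.00302). Of 4 general epithelial markers, CDH1 moved the same way (0.91 and -1.63, adjusted p = 0.0376 and 0.00781) and EPCAM fell in stiff col (-1.71, adjusted p = 0.0279). KRT8 and KRT18 were not called, and their mean values were lower in stiff than soft IPN (-0.32 and -0.28). In stiff col against stiff IPN they differed by -0.03 and -0.18. The sum of the 4 markers ran from 9122 to 17051 over the 8 libraries.

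Among markers of other cell types, PTPRC was at 0 in every library, and LUM, CD3E and VWF had at most 2 normalized counts, but DCN had between 526 and 1217 and CD68 between 324 and 5017. The 4 fibroblast markers summed to between 531 and 1226, the 3 endothelial markers to between 3 and 33 and the 3 leukocyte markers to between 324 and 5018. CD68, a lysosomal gene, fell in stiff against soft IPN with the block (log2 difference -2.24, adjusted p = 0.0126), as ITGB4 did, and rose in stiff col against stiff IPN (1.72, adjusted p = 0.0187). The part of these marker changes in the laminin and hemidesmosome results was not tested.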

How the data were processed

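RNA-seq libraries of MCF10A cells in 4 hydrogels were analysed, 2 per gel, and groups were taken from the labels. Per the methods and the labels, the authors trimmed reads, aligned them to hg19, counted them per gene with HTSeq and normalized the counts. The deposited values are a signal, whole-number normalized counts made by dividing counts by 1 factor per library, and the strandedness and annotation used for counting are not given in the sources used here. The submitters' processing notes list Trim Galore 0.3.3, TopHat2 2.0.13, SAMtools 1.1, HTSeq, DESeq2 and R 3.2.0. Of 25369 symbols, 28 had turned into dates and were not assigned to genes. The table had 0 value columns without a sample.

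Genes with at least 10 normalized counts in at least 2 libraries were transformed to log2(normalized count + 1) and modelled in R 4.3.3 with limma 3.58.1 and statmod 1.5.0, using 1 mean per gel over all 8 libraries, a mean-variance trend and robust moderation, so that folds of low genes are understated. The Benjamini-Hochberg adjustment ran across all 13369 genes that met this filter, and 0.05 was the threshold. This replaced a count test because the values are already scaled and rounded. The scripts were tested on simulated data.

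The replicate numbers stand for independent trials in the methods, and across genes the change from replicate 1 to replicate 2 in a gel correlated with that in every other gel, in all 6 pairs (r from 0.278 to 0.819), so the numbers were taken to pair the libraries. The lowest r was that of soft IPN with stiff IPN (0.278). Stiff IPN had r = 0.393 with soft col:rBM and 0.398 with stiff col, while pairs without stiff IPN ran from 0.654 to 0.819. The pairing was thus weakest for stiff IPN, whose comparisons gave the pairwise calls of ITGB4, LAMB1 and DST in the blocked fit of all 8 libraries. The fit with the trial as a block is given beside the fit without it. P-values measure the spread between these libraries only.

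The 9 members and all lists were chosen with earlier results of these data known. Named genes were the members, their partners in a trimer or plaque, list genes called with or without the block, and the 5 genes most like each of 3 profiles. Gene positions and exon lengths were taken from the GENCODE annotation lifted to hg19. Exons of other genes covered at most 2.6% of the exon bases of any of the 9 genes, and reads there may be lost or shared. Promoters came from RefSeq GRCh38.p14, in which ITGB4 was not found, and the promoter of PLEC was not printed. One listed gene is not reported here.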

Additional observations from a re-analysis of the deposited data

Results flagged for a closer look

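The stiff minus soft values had opposite signs in the 2 gel systems for DST and LAMB3. DST was higher in stiff than soft IPN in both trials (0.54 and 0.59 on the log2 scale) and lower in stiff col than soft col:rBM in both (-0.65 and -0.70), which gave a difference between systems of -1.24 (SE 0.45). LAMB3 was lower in stiff IPN in both trials (-0.31 and -0.64) and higher in stiff col in both (0.18 and 0.06), which gave 0.60 (SE 0.53). Its value in the collagen gels, 0.12 (SE 0.37), was smaller than its SE, so a rise of LAMB3 in stiff col is not shown. The test of that difference with limma gave adjusted p = 1 for both genes without the trial as a block, and 0.156 for DST and 0.549 for LAMB3 with it, so neither passed. The DST value passed in the blocked fit without replicate 1 of stiff IPN (-1.15, adjusted p = 0.025). Scaled to equal totals, the difference was -1.46 for DST and 0.38 for LAMB3.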

How the results depend on the processing

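Without the trial as a block, 0 of the 9 genes were called in any comparison under any pseudocount, filter, rescaling, moderation or left-out library (limma, with 0 to 2 of the 9 at an unadjusted p under 0.05 as reported). The replicate block changed counts of members called. It gave 2 in stiff against soft IPN, 1 in stiff col against stiff IPN and 2 for any difference among the gels, also with median of ratios, upper quartile or equal-total rescaling or a pseudocount of 5. The same count did not always mean the same genes. With equal totals the 2 in stiff against soft IPN were ITGB4 (adjusted p = 0.02) and DST (adjusted p = 0.0319), while LAMB1 did not pass (adjusted p = 0.064). The blocked upper quartile, equal-total and compared-libraries-only fits were chosen after the data were seen. Fitting only the libraries compared with the block gave 1 in stiff against soft IPN, 1 in stiff col against stiff IPN and 3 in stiff col against soft col:rBM. Leaving out 1 library at a time with the block gave 0 to 4 in stiff against soft IPN, 0 to 3 in stiff col against stiff IPN, 0 to 2 in stiff col against the gels with rBM, 0 to 1 for the difference between gel systems and 0 to 3 for any difference among the gels. The counts of 4, 3 and 2 came without a stiff IPN library, and the count was 0 without soft IPN replicate 2 (stiff against soft IPN, and any difference) and without either stiff col library (stiff col against stiff IPN, and any difference). With 1 library left in a gel, that library is assumed to vary like the others. The cause of these changes was not tested.

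None of the 3 values called between 2 gels in the blocked fit of all 8 libraries changed sign. ITGA6 in stiff against soft IPN, not called in that fit, ran from -0.17 to 0.72 over the blocked settings. Of the 3 called members, ITGB4 in stiff against soft IPN ran from -1.89 to -1.01 over 14 blocked settings, DST in stiff col against stiff IPN was between 0.00812 and 0.178 in adjusted p, and LAMB1 in stiff against soft IPN ran from -1.08 to -0.62. DST in stiff against soft IPN passed in 1 blocked setting, with equal totals (0.83, adjusted p = 0.0319). It was not the only further member to pass in some setting. ITGA6, LAMC1 and PLEC in that comparison passed only with 1 library left out, as did LAMB1, LAMC1 and ITGA6 in stiff col against stiff IPN. Depth did not limit the 9 genes, whose lowest value was 2831 normalized counts.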
